A study of Rattus norvegicus with 9 samples.

Results

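A set of 10 classical targets of type I interferon, out of 32883 genes in the deposited liver tables, was followed across 9 rat livers. The set held Mx1, Mx2, Oas1a, Oasl, Isg15, Irf7, Ifit2, Ifit3, Rsad2 and Usp18, and each symbol matched 1 row of both the count table and the table of TPM, which adjust for gene length. The genes were chosen by name, with no threshold on their measured values, but earlier results of these data were known at that point. All 10 passed edgeR's filter on low counts, with between 17 and 1852 reads per gene and library.

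The livers came from male Sprague-Dawley rats obtained at 8 to 11 weeks of age, with 3 livers each from normal rats, from the empty group and from the UTOpiA group. The ages when the livers were taken are not given. Both of the latter groups were rats with acute-on-chronic liver failure (ACLF), produced by bile duct ligation for 21 days and a later injection of lipopolysaccharide (LPS) at 0.25 mg/kg. From 1 h after LPS, the blood of these rats ran for 2 h through an extracorporeal circuit. In the empty group the circuit held neither an apheresis column nor cells. In the UTOpiA group it held a granulocyte and monocyte apheresis column in series with encapsulated human iPSC-derived hepatocyte-like organoids, made from gene-edited iPSCs. The livers were taken 24 h after LPS from surviving rats, whereas normal rats had no ligation, no LPS and no circuit. Ligation, LPS and the circuit therefore cannot be told apart in a comparison with normal livers, and neither can column and organoids in a comparison with the empty group. The labels name the livers biological replicates.

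Type I interferons signal through the receptor chains IFNAR1 and IFNAR2 and the kinases JAK1 and TYK2. The kinases lead to the complex ISGF3, which includes STAT2 and IRF9. ISGF3 binds the interferon-stimulated response element (ISRE) in promoters and raises the transcription of antiviral genes. LPS can start this route through TLR4 and the adaptor TRIF, and in the liver both macrophages and hepatocytes respond to interferon.

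The 10 genes take several parts in that response. Mx1 and Mx2 encode dynamin-like GTPases that hold back viruses, and Oas1a encodes a 2′-5′ oligoadenylate synthetase that activates RNase L on sensing double-stranded RNA. Oasl encodes a relative of the synthetases, Ifit2 and Ifit3 encode repeat proteins that bind foreign RNA or partner proteins, and Rsad2 encodes viperin, a radical SAM enzyme. Isg15 encodes a ubiquitin-like protein that is attached to other proteins, and Usp18 encodes the protease that removes it and also dampens IFNAR signaling. Irf7 encodes the transcription factor that amplifies interferon production.

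In the deposited tables, Mx1 (ENSRNOG00000001959) and Mx2 (ENSRNOG00000001963) lie side by side on chromosome 11, at chr11:37891156-37914983 and chr11:38035450-38059950. Ifit2 (ENSRNOG00000036604, chr1:252894663-252900726) and Ifit3 (ENSRNOG00000022839, chr1:252906234-252911382) are neighbors as well, and Irf7 (ENSRNOG00000017414, chr1:214248837-214252456) is on the same chromosome. Oas1a (ENSRNOG00000001369, chr12:41200718-41211909) and Oasl (ENSRNOG00000001187, chr12:47444104-47456894) share chromosome 12. Isg15 (ENSRNOG00000021802, chr5:173624310-173626248), Rsad2 (ENSRNOG00000007539, chr6:45655954-45669148) and Usp18 (ENSRNOG00000037198, chr4:153805993-153834430) each lie elsewhere. All 10 are annotated as protein-coding. The submitters' processing notes name the build rn6, the methods name the mouse build GRCm38, and the tables themselves name none. The Mx, Oas and Ifit genes have close paralogs, so their counts are uncertain where reads could be shared. Irf7 overlaps Phrf1 on the opposite strand, and since no strand setting for the counting is given in the sources used here, reads of both genes cannot be told apart.

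RefSeq promoter windows of the assembly GRCr8, from 250 bases before to 50 bases after the gene start, were matched for 6 of the 10 genes. The ISRE letters (GAAA, any 2 bases, GAAA), searched on both strands, occurred in 4 of the 6 windows (66.7%), against 1312 of all 33469 windows (3.92%). The stretches around the matches are shown because they hold the letters of the element known to bind ISGF3. A match does not show binding. Each is written 5′ to 3′ along the strand of its gene with the matching letters in capitals, and TTTC in capitals marks a match on the opposite strand.
Oas1a, chr12:41330375-41330465, plus strand: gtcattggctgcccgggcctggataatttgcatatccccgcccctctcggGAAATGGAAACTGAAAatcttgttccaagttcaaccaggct
Irf7, chr1:205800043-205800142, minus strand: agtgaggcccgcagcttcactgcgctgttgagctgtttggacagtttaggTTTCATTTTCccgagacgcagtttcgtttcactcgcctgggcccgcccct
Ifit3, chr1:241527232-241527325, plus strand: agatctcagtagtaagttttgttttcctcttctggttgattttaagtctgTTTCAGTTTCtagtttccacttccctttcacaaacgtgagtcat
Rsad2, chr6:48788218-48788317, minus strand: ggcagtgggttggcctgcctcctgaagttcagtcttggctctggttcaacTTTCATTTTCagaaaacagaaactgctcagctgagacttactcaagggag

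The Oas1a window held 2 overlapping matches, whose first bases lay 41 and 35 bases before the start. The match began 69 bases before the start in Irf7, 44 in Ifit3 and 147 in Rsad2. The windows of Mx1 and Oasl did not contain these letters, which says nothing of sites elsewhere or of other spellings. Letters of a gamma-activated site (TTC, any 3 bases, GAA) occurred in the Oas1a window and in 8.87% of all windows, and NF-kB letters (GGGA, any 4 bases, CC) occurred in the Mx1 window and in 19.3% of all windows. Among 43 windows of a wider list of interferon-stimulated genes, 22 (51.2%) held the ISRE letters.

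**Figure D1:**
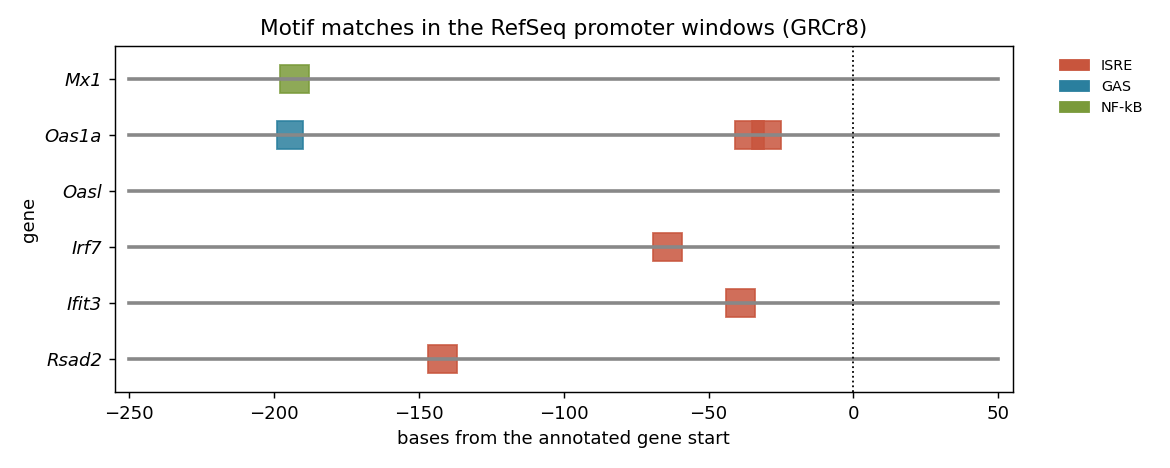
Matches of the ISRE, gamma-activated site (GAS) and NF-kB letters in the 6 promoter windows, by distance in bases from the annotated gene start (dotted line). ISRE letters are seen in Oas1a, Irf7, Ifit3 and Rsad2, all between 147 bases before the start and the start itself.

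Levels were compared between genes on the TPM scale. In normal livers, the 10 genes ranged from 0.836 ± 0.186 TPM in Rsad2 to 15.5 ± 3.94 TPM in Mx2 (SD, n = 3). After Mx2 came Usp18 at 13.0, Ifit2 at 12.8, Oas1a at 11.4, Irf7 at 10.2, Isg15 at 6.48, Ifit3 at 3.46, Mx1 at 3.27 and Oasl at 2.43 TPM. The livers of neighbors in this order overlapped, except those of Oasl and Rsad2. In the empty group, Irf7 led at 59.6 ± 35.4 TPM (SD, n = 3), Mx2 followed at 26.6, and Oas1a at 7.42 and Mx1 at 7.04 came last. Among UTOpiA livers, Irf7 again came first at 23.9 ± 13.7 TPM (SD, n = 3), and Mx1 came last at 2.75. No pair of neighbors was separate in either ACLF group.

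Interferon transcripts themselves were hardly detected. Of 12 ligand genes in the tables, 8 had no read in any of the 9 libraries, including Ifnb1, the alpha interferons Ifna1, Ifna2, Ifna5, Ifna11 and Ifna16l1, and the lambda interferons Ifnl1 and Ifnl3. A count of 0 allows up to 3 reads per library, which is between 0.173 and 0.211 CPM (counts scaled to library size). The alpha interferon gene Ifna4 had 1 read in 1 library, Ifne had 2 reads in 1 library, Ifnk had 6 reads in all, and Ifng had 3. None of the ligands passed the filter on low counts, so none was tested. A change in them was not detectable at this depth 24 h after LPS.

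Between groups, each gene was compared as CPM scaled by TMM, edgeR's correction for library composition. A call needed a fold change above 2 and, in edgeR's quasi-likelihood test, a p under 0.05 after Benjamini-Hochberg adjustment over all 14089 tested genes. In the empty group, 4 of the 10 genes rose above normal livers (Oasl, Irf7, Ifit3 and Rsad2) and 0 fell. Of all genes tested, 20.7% were called higher and 11.1% lower in this comparison. The median log2 fold change was 0.83 over the 10 genes and 0.04 over all genes tested. Without empty replicate 3 the median over the 10 genes was 0.10, against 0.05 over all genes. In bulk liver RNA, a change in the number of cells that carry a transcript cannot be told apart from a change in the transcript per cell.

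Rsad2, which encodes viperin, had the largest fold change of the 10. It measured 2.19, 1.62 and 2.62 CPM in normal livers, 18.0, 4.99 and 33.8 CPM in the empty group and 2.93, 12.8 and 2.78 CPM in the UTOpiA group. All 3 livers of the empty group and all 3 of the UTOpiA group lay above the normal livers, while the ACLF groups overlapped. The log2 fold change of the empty group over normal livers was 3.14 (SE 0.83, edgeR adjusted p = 0.0132). Leaving out 1 liver at a time gave between 2.42 and 3.59, with adjusted p between 0.00398 and 0.0496. The UTOpiA group was 1.54 above normal livers on the log2 scale (SE 0.81, adjusted p = 0.162), and without UTOpiA replicate 2, the liver at 12.8 CPM, this was 0.42.

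Oasl measured 4.99, 3.15 and 5.90 CPM in normal livers, 9.80, 27.3 and 23.5 CPM in the empty group and 14.9, 12.8 and 3.99 CPM in the UTOpiA group. The empty group lay entirely above normal, and in the UTOpiA group replicates 1 and 2 lay above and replicate 3 inside the normal range. The log2 fold change was 2.11 in the empty group (SE 0.54, edgeR adjusted p = 0.0107) and 1.18 in the UTOpiA group (SE 0.53, adjusted p = 0.108). Without UTOpiA replicate 3, the latter was 1.56 and was called (adjusted p = 0.0225).

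Irf7, the amplifier of the interferon response, measured 17.9, 9.78 and 14.7 CPM in normal livers, 46.7, 32.3 and 89.0 CPM in the empty group and 35.1, 28.6 and 11 CPM in the UTOpiA group. The pattern was that of Oasl, with the empty group apart from normal livers and only UTOpiA replicate 3 back inside the normal range. The log2 fold change was 1.99 in the empty group (SE 0.50, edgeR adjusted p = 0.0102) and 0.82 in the UTOpiA group (SE 0.49, adjusted p = 0.210). The value of the UTOpiA group was 0.49 without UTOpiA replicate 1 and 1.17 without UTOpiA replicate 3, and neither was called. Reads of Phrf1 may be included in all values of Irf7.

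Ifit3 measured 6.30, 2.91 and 5.66 CPM in normal livers, 10.9, 13.2 and 22.3 CPM in the empty group and 5.14, 5.66 and 2.56 CPM in the UTOpiA group. The empty group lay above all other livers, and the UTOpiA and normal livers overlapped. The log2 fold change of the empty group over normal livers was 1.65 (SE 0.40, edgeR adjusted p = 0.00819). That of the UTOpiA group was -0.14 (SE 0.40, adjusted p = 0.801), and on the TPM scale it was 0.14, where the median gene stood at 0.28.

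**Figure D2:**
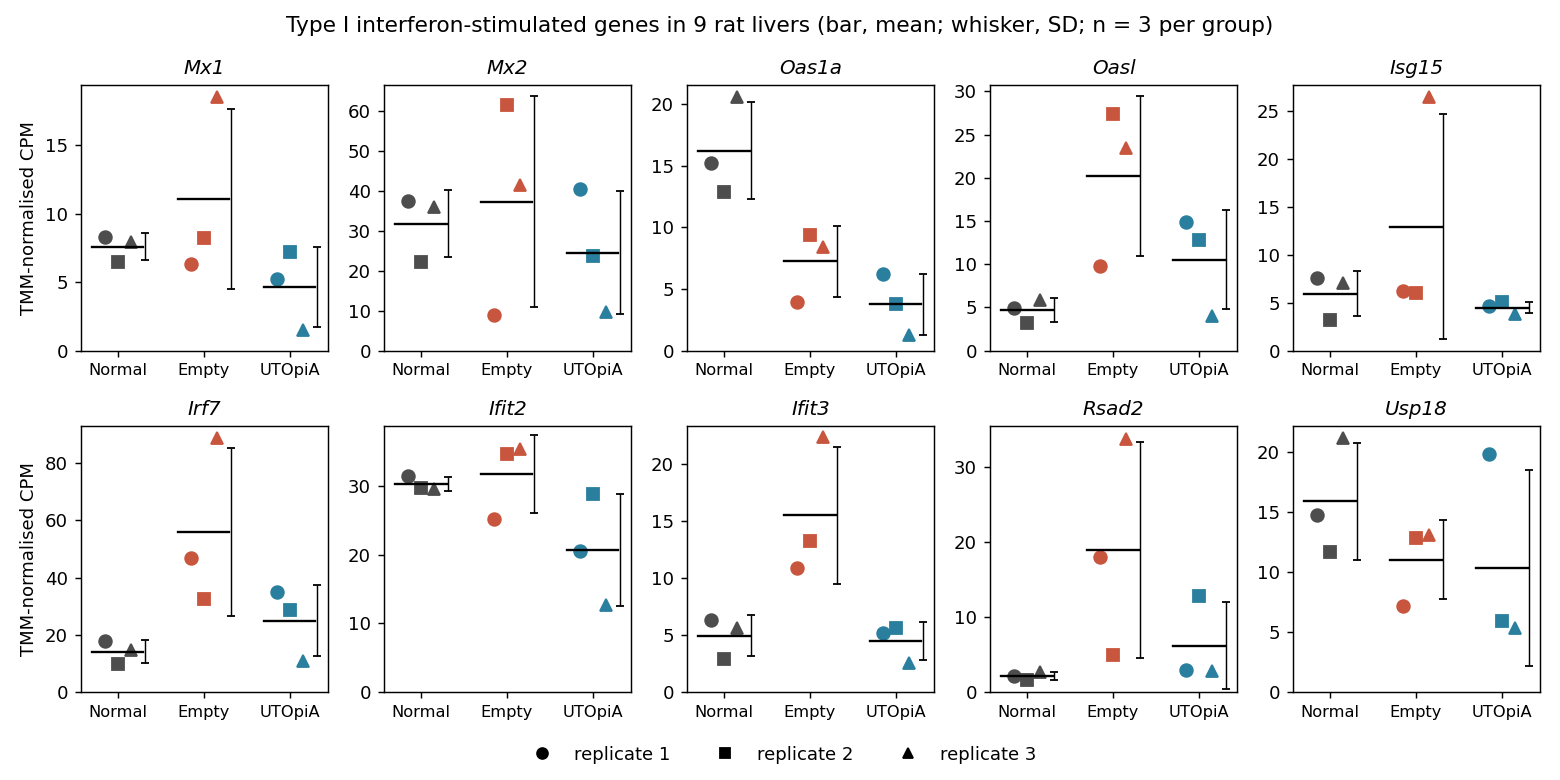
TMM-normalized CPM (linear axes from 0) of the 10 interferon-stimulated genes in each liver, with horizontal bars for group means, whiskers for SD and a marker shape for each replicate number. The empty livers of Oasl, Irf7, Ifit3 and Rsad2 lie above all normal livers, and the UTOpiA livers of Oas1a lie below them.

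Oas1a went the other way. It measured 15.2, 12.9 and 20.6 CPM in normal livers, 3.94, 9.38 and 8.41 CPM in the empty group and 6.18, 3.79 and 1.28 CPM in the UTOpiA group. Both ACLF groups lay entirely below normal livers and overlapped each other. Oas1a fell in the UTOpiA group, with a log2 fold change against normal livers of -2.10 (SE 0.51, edgeR adjusted p = 0.0115). In the empty group the log2 fold change was -1.16 (SE 0.49, adjusted p = 0.0781), which missed the threshold, and with only the 6 libraries of these groups in the fit it was called. Of the 2 synthetase-family genes, Oasl thus had higher and Oas1a lower values in empty than in normal livers, under every scaling tried.

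The other 5 genes passed the test in no comparison. Mx2 measured 37.4, 22.1 and 35.9 CPM in normal livers, 8.97, 61.3 and 41.5 CPM in the empty group and 40.3, 23.7 and 9.63 CPM in the UTOpiA group. Its livers were thus spread over most of the same range in both ACLF groups. Mx1 measured 8.31, 6.47 and 7.95 CPM in normal livers, 6.33, 8.26 and 18.5 CPM in the empty group and 5.27, 7.22 and 1.5 CPM in the UTOpiA group. Empty replicate 3 alone stood above the normal livers, and UTOpiA replicate 3 was the lowest of all 9.

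Isg15 measured 7.61, 3.23 and 7.05 CPM in normal livers, 6.27, 6.06 and 26.5 CPM in the empty group and 4.62, 5.05 and 3.84 CPM in the UTOpiA group. The log2 fold change of the empty group over normal livers, 1.12 (SE 0.58, edgeR adjusted p = 0.141), rested on empty replicate 3 and was 0.05 without it. Ifit2 measured 31.6, 29.8 and 29.7 CPM in normal livers, 25.3, 34.7 and 35.5 CPM in the empty group and 20.6, 28.9 and 12.6 CPM in the UTOpiA group. The normal livers were close together, and all 3 UTOpiA livers lay below them in CPM, at a log2 fold change of -0.55 (SE 0.26, adjusted p = 0.128). That value was -0.30 without UTOpiA replicate 3 and -0.87 without UTOpiA replicate 2, both under the fold threshold. In TPM UTOpiA replicate 2 (18.2) lay above the normal livers (12.3 to 13.2).

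Usp18, the ISG15 protease, measured 14.8, 11.7 and 21.2 CPM in normal livers, 7.21, 12.9 and 13.1 CPM in the empty group and 19.8, 5.91 and 5.34 CPM in the UTOpiA group. Its group mean of CPM was highest in normal livers, whereas that of TPM was about the same in empty (13.1) and normal livers (13.0), and all 3 groups overlapped in CPM. The log2 fold changes against normal livers were -0.53 (SE 0.50) in the empty group, or -0.01 with limma on log2(TPM + 1), and -0.62 (SE 0.50) in the UTOpiA group. Without UTOpiA replicate 1 the latter was -1.51 and was called (edgeR adjusted p = 0.0126).

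Against normal livers, the UTOpiA group thus had 0 of the 10 genes called higher and 1, Oas1a, called lower, where 18.2% and 6.81% of all genes tested were called higher and lower. Irf7 and Oasl were both called higher when replicate 3 of each ACLF group was left out, a setting chosen after seeing the data. The median log2 fold change over the 10 genes was -0.39, against 0.05 over all genes tested. With 1 liver left out this median ranged from -0.57 (without normal replicate 2) to -0.14 (without UTOpiA replicate 3). With limma on log2(TPM + 1) it was -0.11, where the median of all genes was 0.28. In CPM, the UTOpiA livers lay entirely above normal in 1 gene (30.8% of all genes) and entirely below in 2 genes (26.1%). For the empty group these counts were 4 genes (32.4% of all genes) and 1 gene (28.8%). In TPM, Mx1, Isg15 and Ifit2 joined the 4 and Oas1a overlapped, so that the empty livers lay entirely above in 7 genes (53.4% of all genes) and below in 0 (12.8%). The UTOpiA livers lay entirely above normal in TPM in 1 gene (39% of all genes) and below in 1 (13.4%). Both comparisons use the same normal livers.

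**Figure D3:**
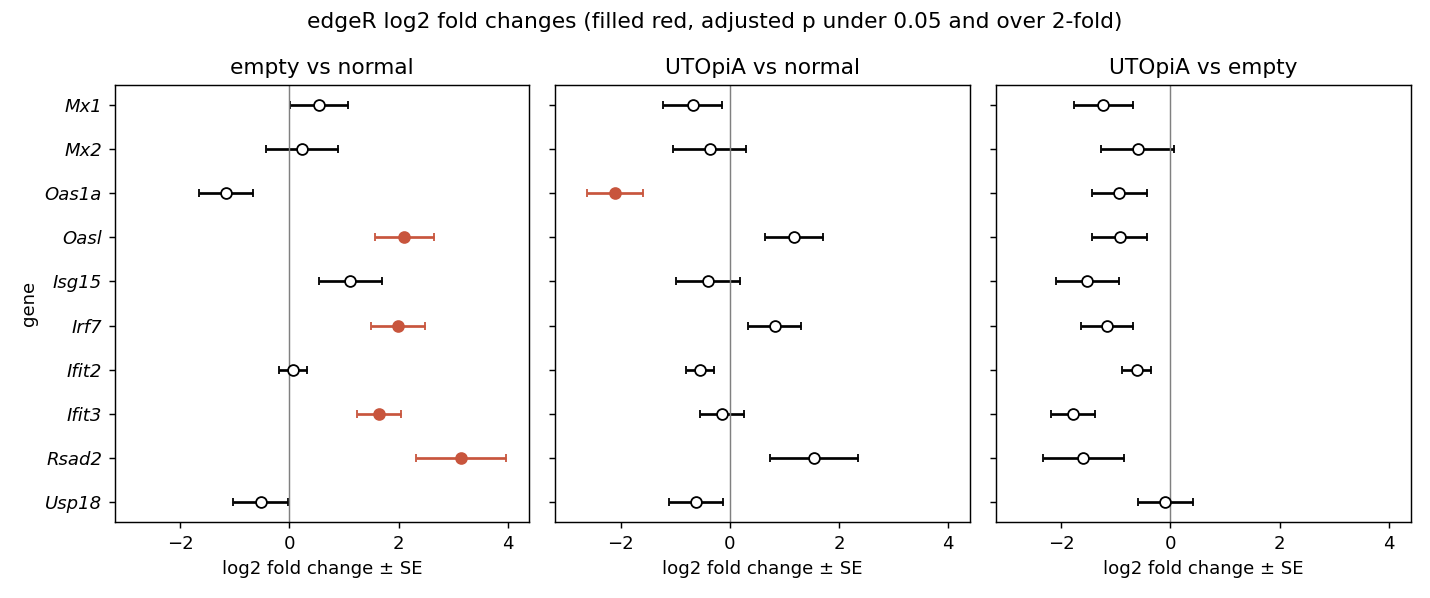
edgeR log2 fold changes with SE for the 10 genes in the 3 comparisons, with called genes filled in red. In the comparison of the UTOpiA with the empty group all 10 values lie below 0, between -1.79 and -0.09, and none is called.

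In the UTOpiA group, the values of all 10 genes were lower than in the empty group, by a median log2 fold change of -1.05, while 49.8% of all genes tested had a value below 0. The value of Usp18, -0.09, kept its sign in 12 of 17 alternatives and reached 0.35 with both replicates 3 left out. None of the 10 genes passed edgeR's test, and neither did any other gene (0% called higher or lower), since no adjusted p was below 0.170. Before adjustment, 5 of the 10 genes and 1456 of the 14089 (10.3%) had a p under 0.05. The count of 5 was 1 without empty replicate 3 or without UTOpiA replicate 3, 2 with the replicate block or with only the libraries of the ACLF groups, and 7 without empty replicate 1. The lowest value was that of Ifit3, at -1.79 (SE 0.40, unadjusted p = 0.00135, adjusted p = 0.264). The other 4 were Isg15 at -1.52 (SE 0.59, unadjusted p = 0.0289), Mx1 at -1.23 (SE 0.54, unadjusted p = 0.0490), Irf7 at -1.17 (SE 0.48, unadjusted p = 0.0380) and Ifit2 at -0.61 (SE 0.26, unadjusted p = 0.0427). Without empty replicate 3, Isg15 was at -0.45, Mx1 at -0.63 and Irf7 at -0.67 (unadjusted p = 0.240, 0.248 and 0.177 in edgeR), while Ifit3 was at -1.43 (unadjusted p = 0.00613). Ifit2 was at -0.53 without empty replicate 3 and at -0.36 without UTOpiA replicate 3 (unadjusted p = 0.115 and 0.109 in edgeR). DESeq2, the tool named in the study's methods, called Ifit3 lower (log2 fold change -1.81, adjusted p = 0.00536) and none of the other 9.

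In CPM, the 3 UTOpiA livers lay entirely below the 3 empty livers for Ifit3 and Isg15, as for 5.97% of all genes, and entirely above for none of the 10 (6.15% of all genes). In TPM, Irf7 joined them (8.62% of all genes), as the UTOpiA livers measured 32.5, 31.1 and 8.03 and the empty livers 45.8, 33.2 and 99.8 TPM. The two-sided exact permutation test on TPM gave p = 0.1 for these 3 genes, which is the smallest that 3 livers against 3 allow. Group means of CPM were highest in the empty group for 8 of the 10 genes, the exceptions being Oas1a and Usp18. They were lowest in the UTOpiA group for 7 and in normal livers for Oasl, Irf7 and Rsad2.

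The livers within a group differed widely. For the ratio of the highest to the lowest liver, the median over the 10 genes was 1.75 among normal livers, 2.77 among empty livers and 3.73 among UTOpiA livers. Set against the mean of normal livers, the median log2 difference of the 10 genes was -0.04 in empty replicate 1, 0.59 in empty replicate 2 and 1.75 in empty replicate 3. The UTOpiA replicates stood at 0.24, -0.06 and -1.05 in the same order. Empty replicate 3 was the highest of the 6 ACLF livers in 6 genes, and UTOpiA replicate 3 was the lowest in 9, the exception being Mx2. The median between the UTOpiA and empty groups was -0.65 with empty replicate 3 left out, -0.68 with UTOpiA replicate 3 left out and -0.33 with neither in the fit.

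**Figure D4:**
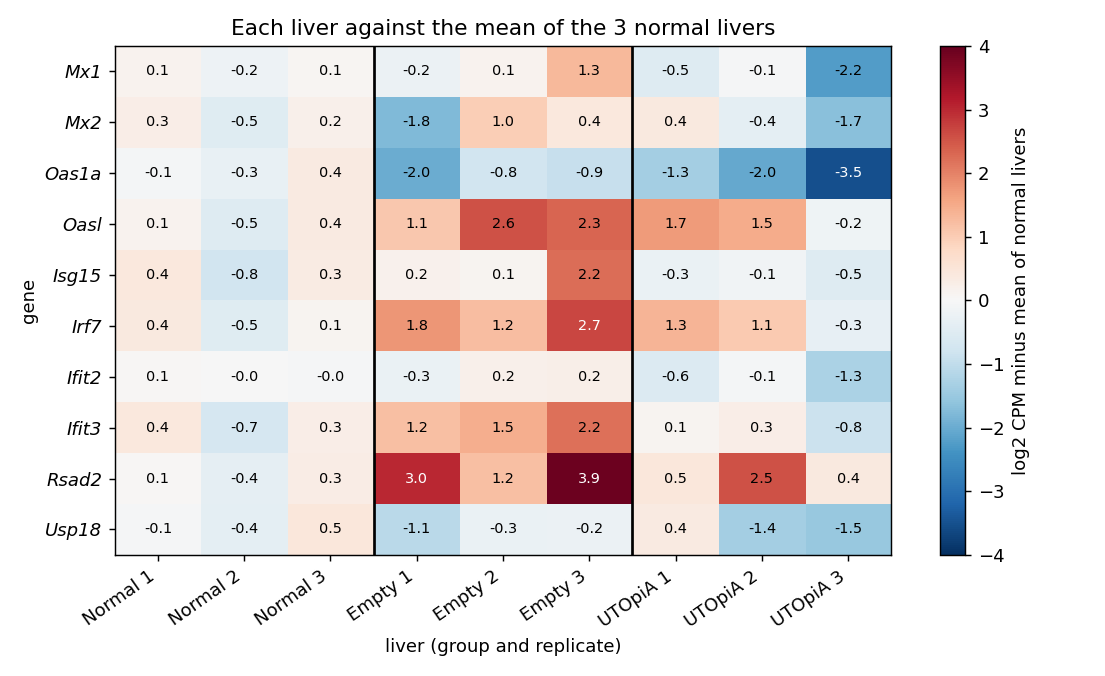
Log2 CPM of each gene (rows) in each liver (columns) minus the mean log2 CPM of the 3 normal livers, on a color scale from -4 to 4. Empty replicate 3 is above normal in 8 of 10 genes, UTOpiA replicate 3 is above normal in 1, and the Oas1a row is below normal in all 6 ACLF livers.

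Markers of other liver cells differed between these livers as well. In empty against normal livers, 20.7% of all genes tested were called higher and 11.1% lower. Of the macrophage markers, 9 of 13 tested were called higher and 0 lower in empty than in normal livers, and their summed TPM ranged from 539 to 643 in normal livers, from 2112 to 3366 in the empty group and from 1102 to 3379 in the UTOpiA group. Hepatocyte markers were called lower in 6 of 10, with sums from 158437 to 173190 in normal livers, from 32388 to 57960 in the empty group and from 38697 to 61179 in the UTOpiA group. UTOpiA replicate 3 had the lowest macrophage sum of the ACLF livers (1102 TPM), whereas the highest in the empty group was that of replicate 1 (3366 TPM), not of replicate 3 (2691 TPM).

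Of neutrophil markers, 7 of 8 tested were called higher in the empty group and 0 lower. Their summed TPM ranged from 7.73 to 11.9 in normal livers, from 837 to 2729 in the empty group and from 5538 to 6705 in the UTOpiA group, which thus lay entirely above the empty group. Most of the UTOpiA sum was Lcn2, which hepatocytes also make, at a log2 fold change of 2.63 over the empty group (SE 0.75, edgeR adjusted p = 0.349). Without Lcn2, the sum ranged from 2.70 to 8.93 TPM in normal livers, from 206 to 1127 TPM in the empty group and from 180 to 518 TPM in the UTOpiA group. Over the whole list the highest ACLF liver was UTOpiA replicate 1 and the lowest was empty replicate 1, while without Lcn2 they were empty replicate 3 and UTOpiA replicate 3. The defining granule genes Mpo and Elane had at most 3 and 9 reads. Of the cholangiocyte markers, 6 of 7 were called higher in the empty group and 0 lower. They summed to 25.3 to 35.4 TPM in normal livers, 326, 450 and 653 TPM in empty replicates 1, 2 and 3, and 201, 427 and 143 TPM in the UTOpiA replicates. The highest and lowest ACLF livers were thus empty replicate 3 and UTOpiA replicate 3, as for most of the 10 genes, and all 7 markers had values below 0 between the UTOpiA and empty groups (median log2 fold change -0.57). Stellate cell and fibroblast markers (6 of 7) and T and NK cell markers (8 of 10) were also called higher in the empty group and 0 lower, and their sums too were lowest of the ACLF livers in UTOpiA replicate 3 (449 and 41.1 TPM). Their sums ranged from 105 to 116 and from 16.2 to 17.9 TPM in normal livers, from 855 to 1054 and from 74.5 to 111 TPM in the empty group, and up to 1023 and 113 TPM in the UTOpiA group. Endothelial markers had 1 of 6 called in each direction, and B cell markers 0 of 3.

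For plasmacytoid dendritic cells, a known source of interferon, 4 of 5 tested markers were called higher, with sums from 11.1 to 12.7 TPM in normal livers, from 55.4 to 68.9 TPM in the empty group and from 36.5 to 52.9 TPM in the UTOpiA group, but the defining Siglech had at most 8 reads. The marker Irf8, a myeloid transcription factor, is also counted among the sensor genes below. In the dendritic cell list too the highest and lowest ACLF livers were empty replicate 3 and UTOpiA replicate 3. All 5 markers had values below 0 between the UTOpiA and empty groups (median log2 fold change -0.20). No gene of these lists was called between the UTOpiA and empty groups. The part of these cells in the values of the 10 genes was not tested.

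The 10 genes moved partly together over the 6 ACLF livers. Pearson's r of log2 CPM over these livers, which share group, depth and scaling, ranged from -0.10 to 0.98 over the 45 pairs of genes, with a median of 0.78. It was above 0.8 for 17 pairs and below 0 for 2, those of Rsad2 with Mx2 and with Usp18. The highest value was that of Oas1a with Oasl, although these genes differed from normal livers in opposite directions. Against the mean profile of all 10, Mx1 was closest (0.98), and Mx2 (0.72), Rsad2 (0.64) and Usp18 (0.64) were least alike.

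Among 13104 other genes with a mean of at least 1 CPM in the ACLF livers, the profile most like that mean was Gbp2, an interferon-inducible guanylate-binding protein, with r = 0.998 over 6 livers. It was followed by Rbm17 (0.985), Mdk (0.984), Fundc1 (0.984) and Cep70 (0.983), and 151 genes (1.15%) were above 0.9. Gbp2 measured 12.1, 13.7 and 10.7 CPM in normal livers, 33.3, 53.1 and 84.3 CPM in the empty group and 37.4, 33.6 and 11.1 CPM in the UTOpiA group. It rose in the empty group at a log2 fold change of 2.22 (SE 0.47, edgeR adjusted p = 0.00474), and UTOpiA replicate 3 alone lay inside the normal range. Of the most alike genes, only the first had its promoter window looked up, which says nothing of the others. The window of Gbp2 also held the ISRE letters, beginning 31 bases before the start, and is shown for comparison with those above.
Gbp2, chr2:234005646-234005726, plus strand, GRCr8: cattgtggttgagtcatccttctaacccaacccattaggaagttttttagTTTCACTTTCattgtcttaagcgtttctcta

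Of 7 receptor and ISGF3 genes, 1 was called higher and 1 lower in empty livers than in normal ones, where 20.7% and 11.1% of all genes were so called, and the counts say nothing particular of this list. Ifnar1, a receptor chain, rose by a log2 fold change of 1.20 (SE 0.13, edgeR adjusted p = 0.000156), and Stat2, the ISGF3 subunit, fell by 1.04 on the log2 scale (SE 0.19, adjusted p = 0.00173). The values of Jak1 (-0.77, adjusted p = 0.0104) and Tyk2 (-0.32, adjusted p = 0.0737) were smaller than the fold threshold, with Tyk2 above 0 on the TPM scale. Irf9 stood at 0.09 (adjusted p = 0.699). In the UTOpiA group, Ifnar2, the other receptor chain, was the only gene of the 7 called against normal livers, at 1.19 (SE 0.25, adjusted p = 0.00535), while Ifnar1 was at 0.95 and Stat2 at -0.93. Ifnar2 in the empty group was at 0.74 (SE 0.25, adjusted p = 0.0329), under the fold threshold, with all 3 livers above normal, and was called in 4 of 17 alternatives. Between the UTOpiA and empty groups it was at 0.45 (SE 0.25, adjusted p = 0.564). Without normal replicate 1 or empty replicate 1, Stat2 in the empty group slipped under the fold threshold (down to -0.90), as it did with at least 10 counts in every library and with limma on TPM (-0.53), and without UTOpiA replicate 3, or without both replicates 3, Ifnar2 did so in the UTOpiA group (0.96 and 0.97) while Ifnar1 passed it (1.00 and 1.01). Ifnar1 and Stat2 in the UTOpiA group were called in 7 and 4 of 17 alternatives.

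Of 19 sensor and induction genes tested, 8 rose and 2 fell in the empty group, where 20.7% of all genes were called higher and 11.1% lower. Irf8, a myeloid transcription factor, rose by 1.77 (SE 0.14, edgeR adjusted p = 5.92e-05) and Cd14, the LPS co-receptor, by 1.88 (SE 0.28, adjusted p = 0.000688). Cd14 measured 119, 108 and 94.6 CPM in the empty group and 36.7, 58.6 and 34.1 CPM in the UTOpiA group, which lay entirely below it. That difference was -1.31 on the log2 scale (SE 0.27, adjusted p = 0.208) and was called by DESeq2 (adjusted p = 0.00384) and, without UTOpiA replicate 2, by edgeR (-1.60, adjusted p = 0.04997). The RNA sensor Ddx58 (RIG-I) fell by 1.62 on the log2 scale (SE 0.13, adjusted p = 6.12e-05), and its adaptor Mavs fell by 1.41 (SE 0.15, adjusted p = 0.000157). With limma on TPM, Mavs was under the fold threshold (down to -0.83). Among UTOpiA livers, 6 of the 19 were called higher and 1 lower than in normal livers, where the shares of all genes were 18.2% and 6.81%.

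The feedback inhibitors rose in 4 of 9 genes and fell in 0 in the empty group, where 20.7% of all genes were called higher and 11.1% lower. In the UTOpiA group 2 of 9, Socs3 and Ptpn2, were called higher and 0 lower, near the shares of all genes there (18.2% and 6.81%). That Socs3 call was lost in 7 of 17 alternatives, namely without normal replicate 2 or 3 or UTOpiA replicate 2 or 3 (edgeR adjusted p up to 0.0975), with both replicates 3 left out (0.0604), with no count filter (0.0827) and with the replicate block (0.0546). Socs3 measured 6.21, 1.46 and 1.39 CPM in normal livers, 25.9, 130 and 23.4 CPM in the empty group and 16, 16 and 29 CPM in the UTOpiA group, so that both ACLF groups lay above all normal livers. Its log2 fold change in the empty group was 4.31 (SE 0.88, edgeR adjusted p = 0.00406), and it was 3.04 without empty replicate 2 and 5.38 without normal replicate 1, both called. The phosphatase genes Ptpn1 (1.3, adjusted p = 0.00289) and Ptpn2 (1.45, adjusted p = 0.00176) were also called, as was the low-level Socs1 (2.46, adjusted p = 0.0376), which reached at most 2.79 CPM. Without empty replicate 2, Ptpn1 was at 0.92 and no longer called, and the Socs1 call was lost in 6 of 15 alternatives, namely without normal replicate 2 or 3 or empty replicate 2 or 3 (adjusted p up to 0.122), with both replicates 3 left out (0.0921) and with the replicate block (0.0598). Of 6 genes for attaching or removing ISG15, Isg15 and Usp18 included, only Uba7, which encodes the activating enzyme, was called, at -1.48 in the empty group (SE 0.23, adjusted p = 0.000950) and -1.32 in the UTOpiA group (SE 0.23, adjusted p = 0.00231). In these comparisons 11.1% and 6.81% of all genes were called lower, so 1 gene of 6 says nothing particular of the list. With limma on TPM the Uba7 calls were lost in 2 of 3 settings for the empty and in all 3 for the UTOpiA group, at -0.87 on the log2(TPM + 1) scale.

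**Figure D5:**
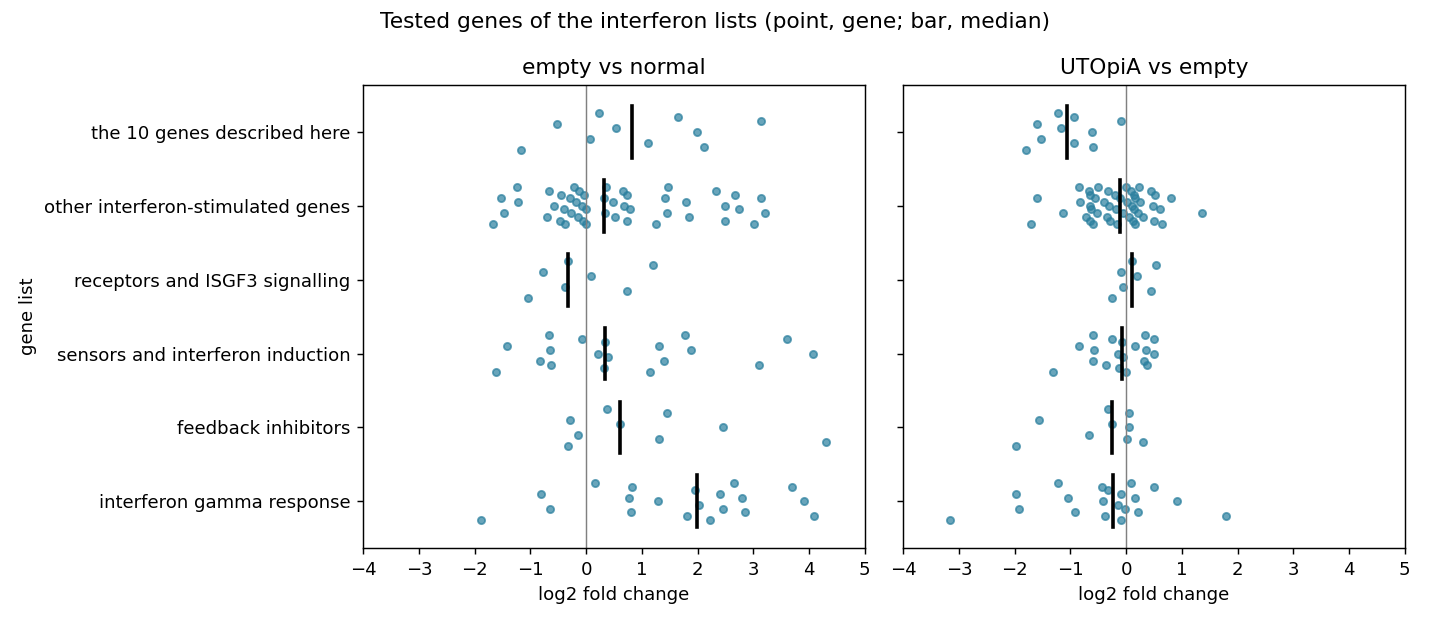
Log2 fold changes of all tested genes in 6 interferon lists, as points with a bar at the list median, for the empty group against normal livers (left) and the UTOpiA against the empty group (right). On the right, the median of the 10 genes is at -1.05 and that of the 47 other interferon-stimulated genes at -0.12.

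In a wider list of 47 further interferon-stimulated genes, 13 rose and 5 fell in the empty group against normal livers, with a median log2 fold change of 0.32, where 20.7% of all genes were called higher and 11.1% lower. In the UTOpiA group 12 rose and 2 fell, with a median of 0.04, where these shares were 18.2% and 6.81%. The counts of this list thus lay near those of all genes. Those with the smallest p in the empty group were Slfn13 (3.13) and the membrane proteins Ifitm3 (2.67), Ifitm2 (3.22) and Ifitm1 (1.79), which were called in the UTOpiA group as well (2.83, 2.97, 2.5 and 1.83). Ifitm3 measured 64.4, 49.4 and 71.4 CPM in normal livers, 413, 279 and 485 CPM in the empty group and 516, 448 and 487 CPM in the UTOpiA group. The UTOpiA and empty livers of Ifitm3 thus overlapped far above normal. Between the UTOpiA and empty groups the median of the 47 was -0.12, with 26 genes below 0 and 21 above.

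The pair of these genes with the smallest p between the ACLF groups differed in direction. Slfn4 measured 56.0, 74.2 and 150 CPM in the empty group and 31.3, 31.8 and 22.8 CPM in the UTOpiA group, where normal livers were at 42.9, 28.1 and 30.7 CPM. The log2 fold change of the UTOpiA over the empty group was -1.70 (SE 0.35, edgeR adjusted p = 0.218). Ifi47, an interferon-inducible GTPase gene, measured 25.6, 22.5 and 35.3 CPM in the empty group, 95.3, 65.7 and 53.6 CPM in the UTOpiA group and 16.8, 26.2 and 23.6 CPM in normal livers. It was 1.36 higher on the log2 scale in the UTOpiA than in the empty group (SE 0.26, adjusted p = 0.189) and was called against normal livers (1.69, adjusted p = 0.00138). Neither difference between the ACLF groups was called by edgeR, and DESeq2 called both (adjusted p = 0.00134 for Slfn4 and 0.00190 for Ifi47).

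Many of the genes known as interferon gamma targets rose, with 13 of 20 called higher and 1 lower in the empty group and a median log2 fold change of 1.99. The shares of all genes called there were 20.7% higher and 11.1% lower. In UTOpiA livers 9 of the 20 were called higher and 1 lower, with a median of 1.07, where these shares were 18.2% and 6.81%. Cd74, the invariant chain of MHC class II, rose by 4.08 in the empty group (SE 0.36, edgeR adjusted p = 7.50e-05) and 3.76 in the UTOpiA group (adjusted p = 0.000143). Gbp3 measured 1.40, 1.34 and 1.54 CPM in the empty group and 3.84, 6.57 and 4.44 CPM in the UTOpiA group, a log2 fold change of 1.79 (SE 0.33, adjusted p = 0.186, and 0.000713 by DESeq2). Its UTOpiA livers lay entirely above both other groups. Of the 20 genes, 14 had values below 0 between the UTOpiA and empty groups, and the median was -0.24. The lowest was the chemokine gene Cxcl10, named here after its values were seen, at -3.16 (SE 1.08, edgeR adjusted p = 0.405), which DESeq2 called lower (adjusted p = 0.0396). Cxcl10 measured 1.66, 44.5 and 5.67 CPM in the empty group and 2.93, 2.12 and 0.677 CPM in the UTOpiA group, and without empty replicate 2 the value was -0.93.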

How the data were processed

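Bulk liver RNA-seq of 9 rats was analyzed, and libraries were grouped by their labels. The authors aligned reads with HISAT2, counted those that mapped uniquely by featureCounts, and deposited raw counts and TPM for 32883 genes. The methods name Cutadapt 1.9.1 and the MGIEasy kit, and the labels name Trimmomatic and NEBNext kits. Libraries held 14241172 to 17321677 counted reads, TMM factors were 0.80 to 1.32, and Alb took 13.3% to 14.9% of reads in normal and 1.54% to 3.91% in ACLF livers. Limits from counts cover counting error only.

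Counts were fitted with edgeR 4.0.16 in R 4.3.3 (filterByExpr, TMM, robust quasi-likelihood, all 9 libraries, two-sided). The SE given with an edgeR value is the absolute log2 fold change divided by the square root of the test's F statistic. In simulated counts with 200 of 14089 genes changed 4-fold between empty and normal livers, edgeR recovered 151 (75.5%) and called 8 unchanged genes, and DESeq2 recovered 174 (87%) and called 35. These changes were few and equally many up and down, so the rates do not cover a shift in composition such as that of Alb. DESeq2 1.42.0, limma 3.58.1 on log2(TPM + 1) or log2(TPM + 0.1), other filters and scaling, a replicate block and left-out livers were alternatives. Correlations used log2 CPM with a prior count of 2. Of the receptor, ligand and inhibitor lists any gene could be named, of the other lists the 4 with the smallest p in empty against normal livers and the 2 in UTOpiA against empty livers, plus the 5 most alike genes. The genes, lists and tests were chosen with earlier results of these data known. Promoters came from RefSeq (GRCr8). Some genes of the lists are counted but not reported by name here.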

Additional observations from a re-analysis of the deposited data

How the results depend on the processing

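Oasl, Irf7, Ifit3 and Rsad2 were called higher in the empty group in every alternative run, and Oas1a was called lower in the UTOpiA group in each. Oas1a was also called lower in the empty group (1 gene in place of 0) with only the libraries of the groups compared, or with replicate 3 of both ACLF groups left out. The last setting, chosen after seeing the data, also gave 2 genes called higher in the UTOpiA group than in normal livers. Same-numbered livers did not deviate together (correlations from -0.18 to 0.06), and the replicate block changed no call of the 10 genes, with 2746 genes higher and 1532 lower for empty against normal livers, 2344 and 897 for UTOpiA against normal livers and 0 between the ACLF groups.

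The counts over all genes moved more. Called lower in the empty group were 690, 748 and 693 genes with limma on log2(TPM + 1), on log2(TPM + 0.1) and without the TPM filter, in place of 1560, and 3036 with no fold threshold, and 1644 in place of 2916 were called higher with at least 10 counts in every library. For the UTOpiA group against normal livers these were 483, 524, 473 and 2285 in place of 959, and 1384 in place of 2563. With limma on log2(TPM + 1), which changes tool, scale and filter (13316 genes) together, the median log2 fold change of all genes was 0.44 (empty) and 0.28 (UTOpiA against normal livers), and the higher share of calls was 82.3% in place of 65.1% and 81.8% in place of 72.8%. Between the UTOpiA and empty groups DESeq2 called 52 genes higher and 74 lower, with 1 of the 10 and 5 genes of the other interferon lists among them, and limma without the TPM filter called 1. Leaving out 1 liver gave 0 to 32 genes higher and 0 to 22 lower there, 0 to 1 in the lists, and 3 to 8 of the 10 genes with separate TPM. For the UTOpiA group against normal livers it gave 0 to 1 of the 10 genes called higher (Oasl without UTOpiA replicate 3), 1 to 2 lower (Usp18 without UTOpiA replicate 1) and 2 to 5 with separate TPM.

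Some values changed sign, among them Mx1, which was at 0.54 in the empty group against normal livers in the main fit. With limma on TPM, Tyk2 in the empty group was 0.19, 0.20 and 0.19, and in the UTOpiA group Ifit3 was 0.14, 0.15 and 0.14 and Slfn4 0.077, 0.080 and 0.077. Without empty replicate 2, Mx2 was -0.34 and Ifit2 -0.0024 against normal livers. Without empty replicate 3, Mx1 was -0.056 and Ifit2 -0.018, and with both replicates 3 left out -0.055 and -0.018. Gbp3 was -0.044 without normal replicate 1, and Irf9 -0.074 without normal replicate 2. In the UTOpiA group against normal livers, Ifit3 was 0.060 without normal replicate 1, 0.12 without UTOpiA replicate 3 and 0.13 with both replicates 3 left out, where Mx2 was 0.0047 and 0.0071. Usp18 between the UTOpiA and empty groups was 0.032 and 0.046 without empty replicates 2 and 3, 0.20 and 0.22 without UTOpiA replicates 2 and 3, and 0.35 without both replicates 3. With 1 liver left out, these values reached 0.82 (Mx1), 0.69 (Mx2), 0.21 (Ifit2), 0.33 (Gbp3) and 0.23 (Irf9) for empty and -0.93 (Mx2) and -0.42 (Ifit3) for UTOpiA against normal livers, and -0.98 (Usp18) between the ACLF groups. The cause was not tested. Of 1357 single-gene values under alternatives, 1260 kept direction and side of the threshold, 35 lost a call and 35 gained one. The highest and lowest livers of an ACLF group differed by up to 6.84-fold in 1 of the 10 genes (Mx2), and recovery of known changes between the ACLF groups was not simulated.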

Other observations

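Among 320 tested genes whose promoter window held the ISRE letters, 72 (22.5%) were called higher and 26 (8.12%) lower in empty than in normal livers, at a median log2 fold change of 0.22. Among 10273 tested genes with a window and no such letters, 20.1% were called higher and 10.8% lower, with a median of 0.03. For the UTOpiA group against normal livers, 17.2% of genes with and 17.5% without the letters were called higher and 4.06% and 6.82% lower, with medians of 0.135 and 0.036. Between the UTOpiA and empty groups the medians were -0.051 and -0.002, with 56.6% and 50.2% of genes below 0. Of 20 windows of interferon gamma targets, 12 held the letters, and of 4 windows of receptor and ISGF3 genes 0 did.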
